A study of Drosophila melanogaster with 5 samples.

Results

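The genes described here make, recapture and receive serotonin in the fly: Trh, SerT, 5-HT1A, 5-HT1B, 5-HT2A, 5-HT2B and 5-HT7. Their chromatin was examined in ATAC-seq libraries from adult *Drosophila* heads, a method in which the Tn5 transposase inserts adapters into DNA that it can reach, so that called peaks mark open chromatin. A region was included when the comparison table of the study gave 1 of these 7 genes as its nearest gene, and every peak that overlapped such a region by at least 1 bp was taken from the peak list of each library. This gave 50 regions of 80590 in the table, in 7 of its 14419 genes. Trh, SerT and 5-HT1B each had 4 regions, 5-HT7 had 7, 5-HT1A had 9, and 5-HT2A and 5-HT2B had 11 each.

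There were 2 dopamine libraries, from nuclei labelled by TH-Gal4, and 3 GABA libraries, from nuclei labelled by vGAT-Gal4. All flies carried a Gal4 driver and a nuclear GFP reporter, were raised on cornmeal agar at 25 degrees C and frozen as adults, and GFP-positive nuclei were sorted from many pooled heads at a stringent gate. The study's protocol crosses the driver line to UAS-Stinger-nls, a bright nuclear GFP. The age and sex of the flies were not given for these libraries. A Gal4 driver labels the cells in which its own regulatory fragment is active, and TH-Gal4 is known to miss most dopamine neurons of the protocerebral anterior medial cluster.

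Serotonin is made from tryptophan by tryptophan hydroxylase and the decarboxylase shared with dopamine synthesis, is packed into vesicles, and is taken up again after release by a plasma membrane transporter. Only a small set of neurons in the fly brain makes it, whereas its receptors, all coupled to G proteins, are found on many other neurons, dopaminergic and GABAergic ones among them. In the fly, 5-HT1A and 5-HT1B lower cyclic AMP, 5-HT7 raises it, and 5-HT2A and 5-HT2B signal through calcium. Serotonin is known for roles in sleep, feeding, aggression and memory in flies.

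The number of called peaks was 69464 and 69940 in the dopamine libraries, against 84055, 81638 and 107219 in the GABA libraries, and the files used here hold no read counts per library. Each peak carried a fold enrichment over background, with a highest value of 8.49 and 11.2 in dopamine neurons, against 21.5, 19.9 and 16.0 in GABA neurons. Because these ranges differed and the settings of peak calling were not given in the sources used here, peaks were also ranked within their own list. The marker gene of dopamine synthesis, ple, reached percentiles of 99.95 and 99.97 in dopamine neurons, against 79.4, 75.9 and 85.2 in GABA neurons. The marker genes Gad1 and VGAT reached between 55.1 and 77.3 in dopamine neurons, against between 97.8 and 99.8 in GABA neurons, whereas DAT overlapped between the neuron types. In the signal test described below, 1 of the 2 tested DAT regions was called higher in dopamine neurons and 0 in GABA neurons. Of 9 marker genes of other neurons, glia and photoreceptors, 8 ranked higher in every GABA library than in both dopamine libraries, 0 the reverse, and only ninaE overlapped. Over all genes of the table, 39.4% ranked the first way and 23.8% the reverse. The glial gene repo separated narrowly, with 66.6 and 70.8 in dopamine neurons, against 71.4, 72.4 and 74.9 in GABA neurons. The mean percentile of these 9 was 45.8 and 54.5 in dopamine neurons, against 77.0, 75.9 and 84.8 in GABA neurons, and Tdc2 had no peak in either dopamine library. Of the 7 regions of these 9 genes that entered the signal test, 6 were called higher in GABA neurons (27.1% of all tested regions). In dopamine neurons, 0 were called higher (24.9%). These values moved in the same direction as the receptor results, and their part in those results was not tested. The 3 pan-neuronal genes split, with elav higher in dopamine neurons, nSyb higher in GABA neurons and brp overlapping. Of their 18 tested regions, 3 were called higher in dopamine neurons (24.9% of all tested regions) and 6 in GABA neurons (27.1%).

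The 5 receptor genes had stronger peaks in GABA neurons, and SerT did not separate the neuron types. At Trh, the only assigned region with a peak had it mainly in dopamine neurons. In sorted nuclei taken in bulk, more nuclei with a site open and a site more open in each nucleus cannot be told apart. For each gene, the highest peak over its regions was ranked among all peaks of the same library, with 0 where no peak was called. Both dopamine libraries ranked below every GABA library at 5 of the 7 genes, all receptors, and above every GABA library at Trh alone. Over all 14419 genes of the table, 39.4% separated in the first way and 23.8% in the second. With percentiles taken within an equal number of peaks per list, the 69464 with the highest -log10 q, an alternative chosen after seeing the data, the same 5 receptors separated in the first way (31.7% of all genes) and Trh in the second. With 2 libraries against 3, the exact two-sided permutation test allows no p below 0.2, so no single gene could pass the threshold of 0.05 by this measure. The labels do not say that the libraries came from separate groups of flies, so p-values measure only the spread between these libraries.

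**Figure D1:**
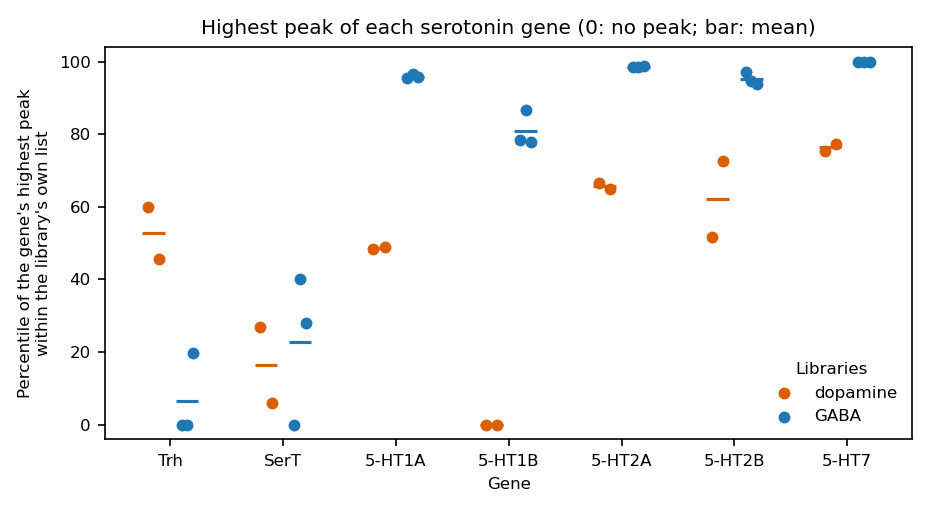
The percentile of the highest peak of each gene within the peak list of its own library is plotted for 2 dopamine and 3 GABA libraries, each point being a library and each bar the mean, with 0 for a gene without a called peak. All 3 GABA points lie above both dopamine points at the 5 receptor genes, both dopamine points lie above the GABA points at Trh, and the points of SerT mix.

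Trh encodes the neuronal tryptophan hydroxylase, the first and rate-limiting enzyme of serotonin synthesis. The gene (FBgn0035187, named Trhn in RefSeq) lies on the minus strand of chromosome arm 3L, from 1190384 to 1193173 in Release 6 of the genome. Of the regions assigned to Trh, only region 2 in order along the chromosome (1191801 to 1192080) had a peak. This region lay inside the gene, 1093 bp from the start site, and was annotated as promoter at 1-2 kb. The fold enrichment there was 2.86 and 2.96 in dopamine neurons, while GABA neurons had no peak in replicates 1 and 2 and 1.80 in replicate 3. The dopamine libraries thus both held the peak, and the only GABA library with a peak had a lower value. The percentile within the list was 59.8 and 45.5 in dopamine neurons, a mean of 52.7 ± 10.1 (SD, n = 2), against 0, 0 and 19.7 in GABA neurons, a mean of 6.58 ± 11.4 (SD, n = 3). The difference of 46.1 points had the smallest p that the design allows (exact permutation test, two-sided, p = 0.2).

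The peaks at Trh region 2 covered short intervals at nearly the same place. The called intervals spanned 106 and 211 bp in dopamine neurons and 73 bp in GABA replicate 3, with summits at 1327 and 1343 bp downstream of the start in dopamine neurons, against 1307 bp in GABA replicate 3. The other 3 regions of Trh had no called peak in any library, including the region nearest the start site (1192909 to 1193084, 89 bp inside the gene). The mean signal of the deposited table, a read count normalised for library size and averaged over all 5 libraries, was 163 at region 2 and 31.8, 49.9 and 62.9 at the others. Region 2 stood at percentile 75.6 of all 80590 regions by this measure. Regions without a peak in any list made up 7 of the 50 (14%, against 19.5% of all table regions), and 5 of these 7 belonged to Trh and SerT.

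A region without a peak in some list cannot enter a test of peak signal unless the missing values are filled in. When missing peaks were set to the lowest fold enrichment of their own list, Trh region 2 was higher in dopamine neurons by 0.84 ± 0.13 on the log2 scale (SE, limma, adjusted p = 0.0068 over 52032 regions). The median difference over all these regions was -0.20 in the same fit, and 23% of them were called higher in dopamine neurons. This value rests on the floor given to GABA replicates 1 and 2.

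SerT encodes the serotonin transporter of the plasma membrane, which ends the signal by taking serotonin back into the neuron. The gene (FBgn0010414) lies on the minus strand of 2R from 24404595 to 24411074. At the region over an annotated start site (24410483 to 24410857), the fold enrichment was 2.05 in dopamine replicate 2, with no peak in replicate 1, against 2.27 and 1.89 in GABA replicates 2 and 3, with no peak in GABA replicate 1. The summits were not at the same place, at 545 bp downstream of the outermost gene start in dopamine neurons, against 274 and 268 bp in GABA neurons. At the region in exon 5 of 8 (24407126 to 24407355), the fold enrichment was 2.18 in dopamine replicate 1 alone, against 1.64 in GABA replicate 3 alone. The other 2 SerT regions held no peak in any list.

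No library had a peak at SerT above the median of its own list. The highest peak stood at percentiles 26.9 and 5.81 in dopamine neurons, a mean of 16.3 ± 14.9 (SD, n = 2), against 0, 40.0 and 28.1 in GABA neurons, a mean of 22.7 ± 20.6 (SD, n = 3). The difference of -6.37 points was smaller than either spread (exact permutation test, two-sided, p = 0.8). It was 4.16 without dopamine replicate 2, 2.29 without GABA replicate 2 and 5.40 within an equal number of peaks per list, so its sign depended on single libraries and on list length. With missing peaks at the list minimum, the regions differed by -0.05 ± 0.24 at the start and 0.32 ± 0.20 in exon 5 on the log2 scale (SE, limma, adjusted p = 0.85 and 0.25).

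At the 42 regions of the receptor genes, peaks were called more often and ranked higher in GABA neurons. A peak was called in all 3 GABA lists and neither dopamine list at 16 regions, all of them in receptor genes, against 13.2% of all table regions. The reverse, a peak in both dopamine libraries and no GABA library, was found at 0 of the 50 regions, against 8.42% of all table regions, and at 1 without dopamine replicate 1 or without GABA replicate 3. By percentile within the own list, 27 receptor regions ranked higher in every GABA library than in either dopamine library (26.6% of all table regions), and 0 ranked the other way (16.4% of all table regions). Within an equal number of peaks per list, these counts were 21 (19.3% of all table regions) and 0 (18.8%).

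These counts moved with the length of the lists. When every list was shortened to the 69464 peaks of the shortest, 10 regions had a peak in each GABA list and none in a dopamine list, against 8.71% of all regions. In 12 of the 16 regions, the fold enrichment of every GABA peak exceeded the lowest value of either dopamine list, on each list's own scale. Among them is 5-HT2A region 2, whose GABA values come from summits in region 3, where both dopamine libraries also had a peak. The receptor regions with a peak numbered 7 and 12 in dopamine neurons, against 30, 35 and 34 in GABA neurons. Of all table regions, 40.5% and 40.4% had a peak in dopamine neurons, against 49.5%, 49.2% and 60.2% in GABA neurons. The mean signal of the receptor regions had a median of 94.4, compared with 81.0 over all table regions.

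**Figure D2:**
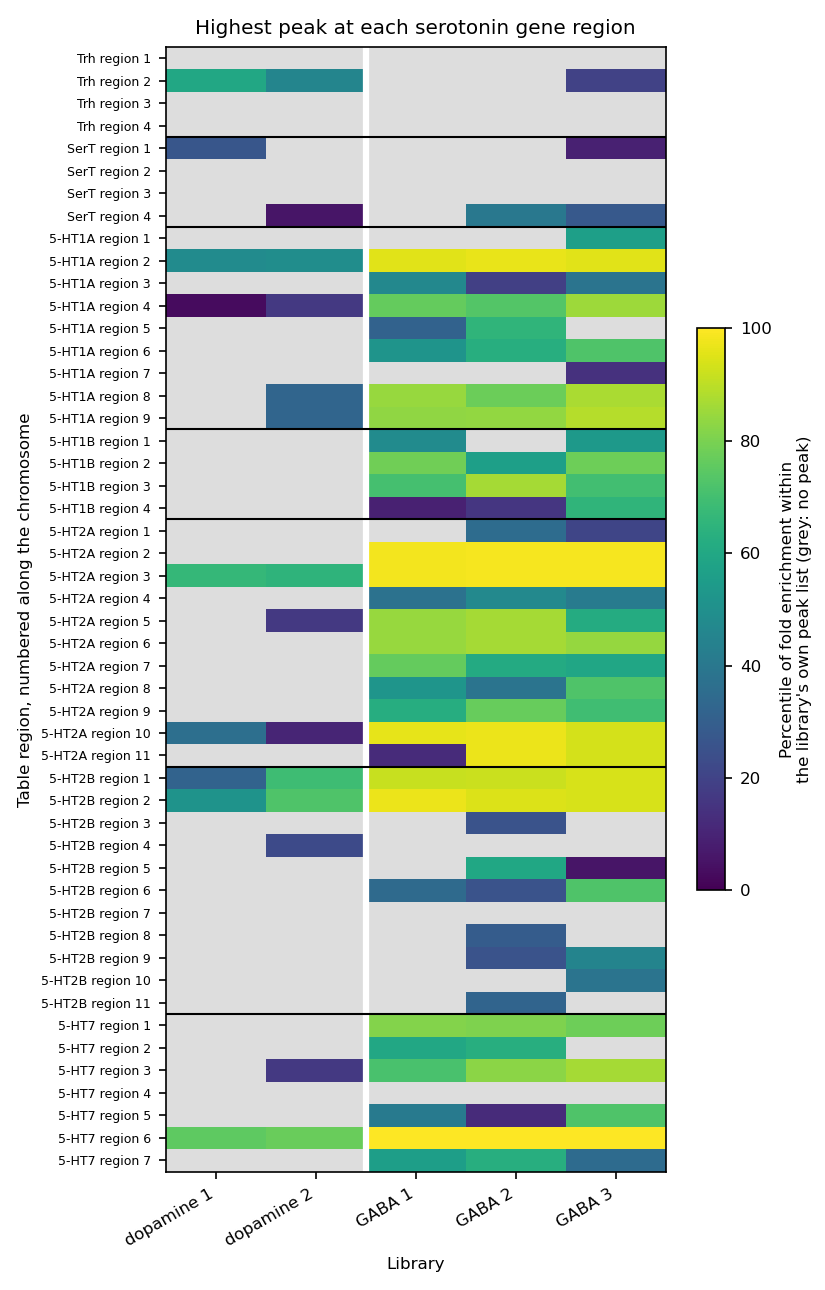
Each row is 1 of the 50 regions, numbered along the chromosome within its gene, and each column is a library, dopamine to the left of GABA. Colour gives the percentile of the highest overlapping peak within its own list from 0 to 100, and grey stands for no peak, which fills most dopamine cells of the receptor genes and most cells of Trh and SerT.

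Peak signal could be tested only where all 5 libraries had a peak, which held for 7 of the 50 regions (14% against 20.6% of all table regions), all of them in receptor genes. The log2 fold enrichment of the highest overlapping peak was quantile-normalised over the 16601 such regions and compared with limma, with adjustment over all of them and a threshold of 0.05. All 7 regions were called higher in GABA neurons and 0 higher in dopamine neurons, against 27.1% and 24.9% of the 16601 regions. The log2 difference of dopamine over GABA lay between -1.46 and -0.85, whereas the interquartile range of all tested regions lay between -0.43 and 0.40. Of the 7, 3 lay over an annotated start site, where 19.9% of tested regions were called higher in GABA neurons, and 4 lay elsewhere, where 31.9% were. The regions belong to 4 genes, with 2 each in 5-HT1A, 5-HT2A and 5-HT2B and 1 in 5-HT7, and neighbouring regions of a gene are not independent. Without dopamine replicate 1, 11 of the 50 regions had a peak in all remaining lists, against 23.5% of all table regions. Calls are not counted there, since a single dopamine library remained.

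**Figure D3:**
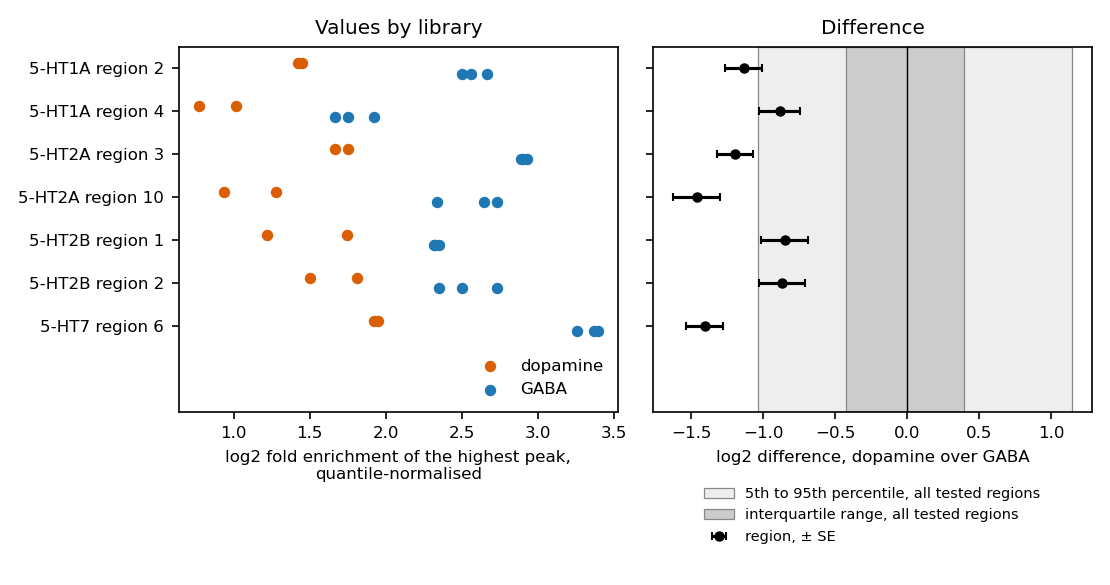
The left panel shows the quantile-normalised log2 fold enrichment of each library at the 7 tested regions, and the right panel the log2 difference of dopamine over GABA ± SE (limma, 2 dopamine and 3 GABA libraries), with shading for the interquartile range and the 5th to 95th percentile of all 16601 tested regions. Every dopamine point lies left of every GABA point of its region, and the differences run from -1.46 at 5-HT2A region 10 to -0.85 at 5-HT2B region 1.

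5-HT1A encodes an inhibitory receptor that lowers cyclic AMP and, in flies, is known for its part in sleep. The gene (FBgn0004168) lies on the plus strand of 2R from 19067155 to 19121958. At its start site, region 2 (19067013 to 19067383), the fold enrichment was 2.55 and 3.07 in dopamine neurons, against 6.64, 7.33 and 4.78 in GABA neurons. The groups did not overlap, and the signal was 2.20-fold higher in GABA neurons after normalisation (log2 difference -1.14 ± 0.13 SE, limma, adjusted p = 6.7e-05). All summits but that of GABA replicate 3 lay between -57 and -47 bp from the start, while the highest summit of GABA replicate 3 lay 137 bp downstream.

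In the first intron of 5-HT1A, region 4 (19072076 to 19072225) had a fold enrichment of 1.80 and 2.28 in dopamine neurons, against 3.46, 3.27 and 3.20 in GABA neurons. The log2 difference was -0.89 ± 0.14 (SE, limma, adjusted p = 5.0e-04), and the dopamine 1 value was the lowest that its list contains. Further into the same intron, regions 8 and 9 (19079927 to 19080562 and 19081203 to 19081575) had a peak in dopamine replicate 2, with 2.62 at each, and none in replicate 1. GABA neurons had 4.18, 3.58 and 3.38 at region 8 and 4.07, 4.16 and 3.51 at region 9. At region 8 the highest summit lay 12863 bp downstream of the start in dopamine replicate 2. In GABA neurons it lay at 13346, 13347 and 13361 bp, so these values come from different places in the region. Regions 3 (19068552 to 19068788) and 6 (19076105 to 19076184) had no dopamine peak, against 2.40, 1.90 and 2.02 at region 3 and 2.51, 2.80 and 2.63 at region 6 in GABA neurons. The 1.90 at region 3 lies below the lowest value of dopamine replicate 2.

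As a gene, 5-HT1A had its highest peak at percentiles 48.2 and 49.0 in dopamine neurons, a mean of 48.6 ± 0.55 (SD, n = 2), against 95.4, 96.5 and 95.6 in GABA neurons, a mean of 95.8 ± 0.59 (SD, n = 3). The difference of -47.2 points was far beyond both spreads, at the smallest p possible (exact permutation test, two-sided, p = 0.2). Of its 9 regions, 2 and 4 had a peak in dopamine neurons, against 7, 7 and 8 in GABA neurons. The shares over all table regions were 40.5% and 40.4%, against 49.5%, 49.2% and 60.2%.

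5-HT1B encodes the second receptor of this inhibitory kind and was the only member with no called peak at its regions in either dopamine library. The gene (FBgn0263116) lies on the minus strand of 2R from 19022325 to 19032642. At its start site, region 3 (19032605 to 19032712), no peak was called in dopamine neurons, against a fold enrichment of 3.13, 4.55 and 2.55 in GABA neurons. Their summits lay at -16, -9 and -10 bp from the start. Region 2, the region of this gene with the highest mean signal (19031943 to 19032276, inside the gene), had no dopamine peak, against 3.61, 2.61 and 2.81 in GABA neurons. Region 4, upstream of the start (19032927 to 19033069), also lacked a dopamine peak, against 1.75, 1.85 and 2.46 in GABA neurons, of which the first 2 lie below the lowest value of dopamine replicate 2.

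The highest percentile of 5-HT1B was 0 in both dopamine libraries, against 78.4, 86.7 and 77.8 in GABA neurons, a mean of 80.9 ± 4.96 (SD, n = 3). The difference of -80.9 points was the widest of the 7 genes (exact permutation test, two-sided, p = 0.2). The mean signal at region 2 was 168.6, at percentile 76.5 of all regions, a mean over all 5 libraries that does not separate the neuron types.

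5-HT2A encodes a receptor coupled to calcium signalling and showed peaks in GABA neurons at nearly every region. The gene (FBgn0087012) lies on the plus strand of 3R from 4612870 to 4633304. Of its 11 regions, 2 and 3 had a peak in dopamine neurons, against 10, 11 and 11 in GABA neurons. The shares over all table regions were 40.5% and 40.4%, against 49.5%, 49.2% and 60.2%. A peak in every GABA library and no dopamine library was found at 7 of the 11 (13.2% of all table regions). The region nearest the start, region 6 (4612765 to 4612859, 11 bp upstream), had no dopamine peak, against 4.19, 4.55 and 3.12 in GABA neurons. Region 5 next to it (4612554 to 4612708) had a peak of 2.28 in dopamine replicate 2 and none in replicate 1. Its GABA values were 4.19, 4.55 and 2.37, and in GABA replicates 1 and 2 the same interval covered regions 5 and 6.

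The largest difference of the 7 tested regions was in the 5′ UTR of 5-HT2A, at region 10 (4622557 to 4623414). The fold enrichment was 2.33 and 2.16 in dopamine neurons, against 7.14, 7.81 and 4.26 in GABA neurons. The dopamine values were alike and all GABA values were higher, with a log2 difference of -1.46 ± 0.16 (SE, limma, adjusted p = 6.2e-05), 2.76-fold higher in GABA neurons. Only 0.373% of the 16601 tested regions had a difference as low. The called interval also differed in width, with 152 and 92 bp in dopamine neurons against 895, 1002 and 1031 bp in GABA neurons, and the summits lay 10012 and 10021 bp downstream of the start in dopamine neurons, against 9906, 9901 and 9929 bp in GABA neurons.

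The other tested region of 5-HT2A, region 3 (4608627 to 4609108), was intergenic, with summits between -4077 and -4044 bp from the start in all 5 libraries. The fold enrichment was 3.08 and 3.76 in dopamine neurons, against 8.93, 9.18 and 6.67 in GABA neurons. The groups did not overlap, with a log2 difference of -1.20 ± 0.13 (SE, limma, adjusted p = 4.8e-05). In GABA neurons the same interval reached into region 2 (4608448 to 4608567), so both regions share their highest peak. It stood at percentiles 66.6 and 64.9 in dopamine neurons, a mean of 65.7 ± 1.15 (SD, n = 2), against 98.4, 98.6 and 98.7 in GABA neurons, a mean of 98.5 ± 0.18 (SD, n = 3; exact permutation test, two-sided, p = 0.2).

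Of the remaining 5-HT2A regions without a dopamine peak, regions 4 (4609363 to 4609505), 7 (4616136 to 4616419), 8 (4620146 to 4620246) and 9 (4621589 to 4621869) had GABA fold enrichments between 2.06 and 3.48. Region 11 (4623470 to 4623575) had 1.81 in GABA replicate 1, below the lowest value of dopamine replicate 2. In GABA replicates 2 and 3 it shared the interval of region 10. Its neighbour region 10 carried the summits of these 2 intervals.

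5-HT2B, the other receptor coupled to calcium signalling, showed the smallest differences in the tested regions. The gene (FBgn0261929) lies on the plus strand of 3R from 8578205 to 8629996. At the start site, region 2 (8577920 to 8578286), the fold enrichment was 2.63 and 4.21 in dopamine neurons, against 7.70, 6.44 and 4.30 in GABA neurons. Dopamine replicate 2 came close to GABA replicate 3 before normalisation, and after it the log2 difference was -0.87 ± 0.16 (SE, limma, adjusted p = 0.0011). At region 1, upstream of the start (8577348 to 8577631), the values were 2.25 and 3.98 in dopamine neurons, against 5.41, 5.54 and 4.30 in GABA neurons. The log2 difference was -0.85 ± 0.16 (SE, limma, adjusted p = 0.0014), and all 5 summits lay between -653 and -644 bp from the start.

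The 2 dopamine libraries differed more at this gene than at the other receptors, with highest peaks at percentiles 51.6 and 72.6, a mean of 62.1 ± 14.9 (SD, n = 2), against 97.2, 94.6 and 93.8 in GABA neurons, a mean of 95.2 ± 1.78 (SD, n = 3; exact permutation test, two-sided, p = 0.2). The other 9 regions lay inside the gene and mostly had few peaks. Region 6 (8585949 to 8586059) had 2.18, 2.01 and 2.63 in GABA neurons and no dopamine peak, region 4 (8582918 to 8583121) had a peak only in dopamine replicate 2, with 2.39, and region 7 (8586617 to 8586690) had none in any library. Of the 11 regions, 2 and 3 had a peak in dopamine neurons, against 3, 8 and 6 in GABA neurons. Here the counts of dopamine replicate 2 and GABA replicate 1 were thus equal. The shares over all table regions were 40.5% and 40.4%, against 49.5%, 49.2% and 60.2%.

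5-HT7 encodes the receptor that raises cyclic AMP, and its start site held the highest peak of the 7 genes in every library. The gene (FBgn0004573) lies on the minus strand of 3R from 30968236 to 31016875. At the start, region 6 (31016746 to 31017172), the fold enrichment was 3.46 and 4.55 in dopamine neurons, against 13.9, 13.7 and 9.09 in GABA neurons. The groups were far apart, with a log2 difference of -1.41 ± 0.13 (SE, limma, adjusted p = 3.0e-05), 2.65-fold higher in GABA neurons. Of all 16601 tested regions, 0.578% had a difference as low. The percentile was 75.3 and 77.3 in dopamine neurons, a mean of 76.3 ± 1.40 (SD, n = 2), against 99.8, 99.8 and 99.7 in GABA neurons, a mean of 99.8 ± 0.058 (SD, n = 3; exact permutation test, two-sided, p = 0.2).

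The 5-HT7 summits lay upstream of the start, at -76 and -32 bp from it in dopamine neurons, against -102, -94 and -98 bp in GABA neurons. No dopamine peak was called upstream at region 7 (31017689 to 31017891), against 2.62, 2.80 and 1.98 in GABA neurons, or in the first intron at region 1 (31006392 to 31006539), against 3.85, 3.80 and 2.81. Region 5 (31014806 to 31015025) also lacked one, against 2.29, 1.79 and 2.63 in GABA neurons. The value of GABA replicate 2 there lies below the lowest value of either dopamine list. At region 3 (31007400 to 31007708), dopamine replicate 2 alone had a peak, with 2.28, against 3.18, 4.01 and 3.29 in GABA neurons.

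**Figure D4:**
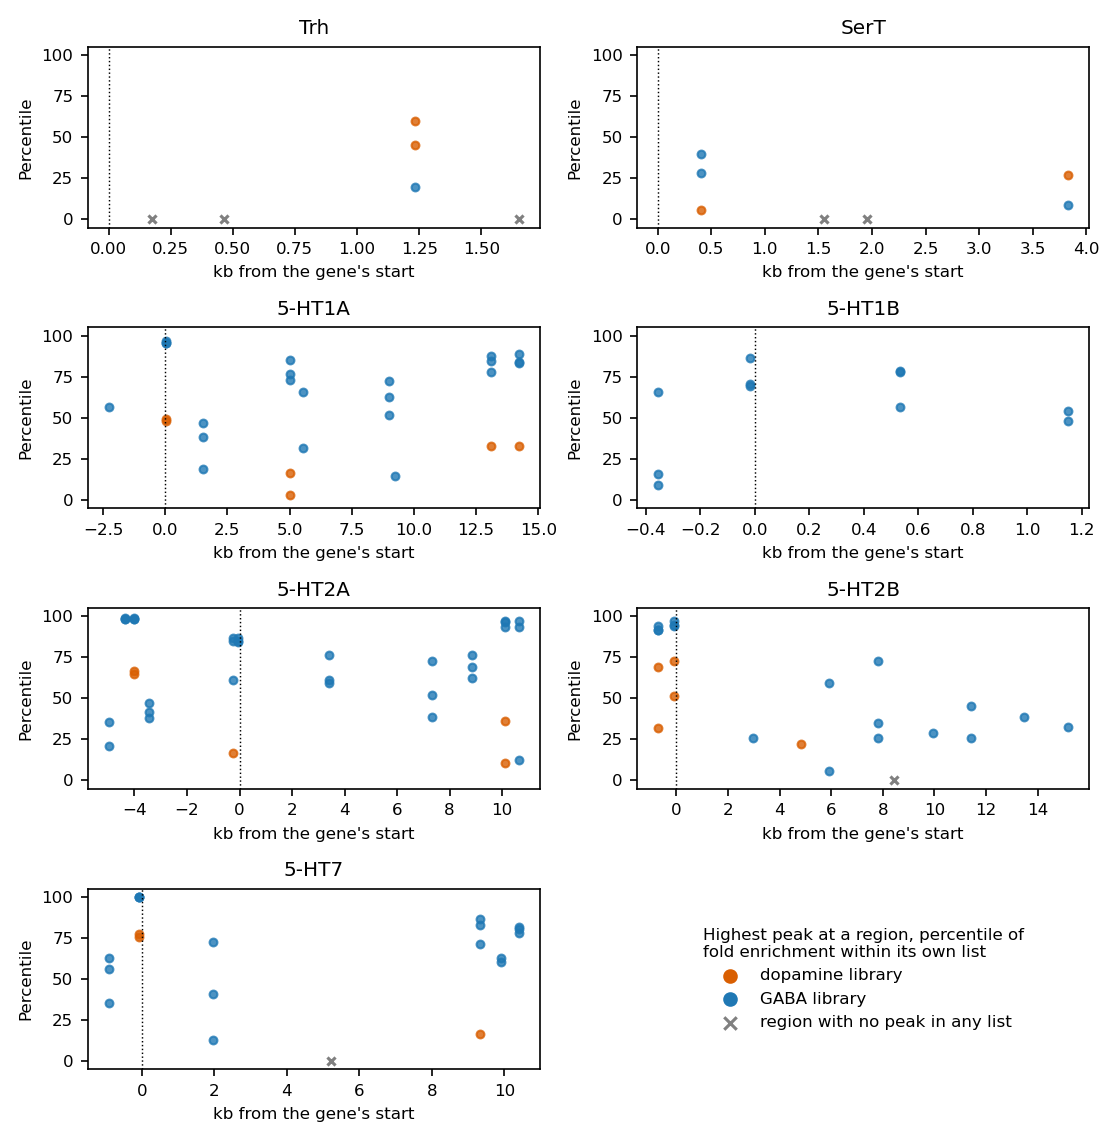
For each gene, the percentile of the highest peak at each region is plotted against the distance of the region's centre from the gene start in kb, negative upstream, for 2 dopamine and 3 GABA libraries, with crosses for regions without a peak in any list. GABA points lie upstream of, at and downstream of the start in the receptor genes, and dopamine points are fewer in every receptor panel.

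Ordered by the mean percentile of their highest peak, the genes ran 5-HT7, 5-HT2A, 5-HT2B, Trh, 5-HT1A, SerT and 5-HT1B in dopamine neurons, against 5-HT7, 5-HT2A, 5-HT1A, 5-HT2B, 5-HT1B, SerT and Trh in GABA neurons. In dopamine neurons each neighbouring pair from 5-HT2A to 5-HT1A in this order overlapped, and the other neighbours did not. In GABA neurons 5-HT1A and 5-HT2B overlapped, as did SerT and Trh, and 5-HT7 lay above 5-HT2A in each library. A percentile compares peak heights within a list and does not measure expression.

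The receptor genes are long, and the table assigns a region to the gene with the nearest start, so many regions inside them carry another name. Of 110 table regions inside the 7 gene spans, 40 were assigned to the gene itself and 70 to others. Among these 70, 0 had a peak in both dopamine libraries and no GABA library (8.42% of all table regions) and 25 the reverse (13.2% of all table regions). All 3 that could be tested were called higher in GABA neurons, against 27.1% of all tested regions. All peak summits inside the gene spans, whatever the assigned name, numbered 7 and 13 in dopamine neurons at 5-HT1A, against 37, 36 and 39 in GABA neurons.

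Summit counts inside the other receptor genes followed the same order. 5-HT1B held 1 and 2 in dopamine neurons, against 13, 12 and 16 in GABA neurons, and 5-HT2A held 2 and 1, against 20, 16 and 17. 5-HT2B held 1 and 1 in dopamine neurons, against 20, 35 and 34 in GABA neurons, and 5-HT7 held 1 and 3, against 30, 28 and 35. Every GABA library had more summits than either dopamine library at these 5 genes, each at the smallest p possible (exact permutation test, two-sided, p = 0.2). The same order held at 53.7% of the 1922 RefSeq genes at least as long as 5-HT1B, the shortest of the 5 with 10318 bp, and the reverse at 16.4% of them. At Trh the counts were 1 and 2 in dopamine neurons, against 0, 0 and 2 in GABA neurons (p = 0.6, exact two-sided permutation test), and at SerT 1 and 1, against 0, 1 and 2 (exact permutation test, two-sided, p = 1).

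Other genes of serotonin metabolism, most of them shared with dopamine synthesis, were called in both directions. Of the list Ddc, Vmat, Pu, pr, Hn, Dhpr and AANAT1, 6 of 7 genes had a region in the table, and 10 of their 39 regions could be tested. Of these, 3 were called higher in dopamine neurons (24.9% of all tested regions) and 1 in GABA neurons (27.1% of all tested regions), with a median log2 difference of 0.28, against -0.02 over all tested regions. Hn, a hydroxylase of phenylalanine and tryptophan, had a log2 difference of 1.34 ± 0.16 in the region at 7760235, over a start (SE, limma, adjusted p = 7.6e-05). Its region over another start, at 7760979, was not tested, with a fold enrichment of 2.55 and 2.96 in dopamine neurons. GABA replicates 1 and 2 had 2.68 and 1.69 there, and replicate 3 had no peak. The start region of pr, an enzyme of pterin cofactor synthesis, had a log2 difference of 0.58 ± 0.16 (SE, limma, adjusted p = 0.013). AANAT1, an N-acetyltransferase of monoamines, had 1.18 ± 0.13 in the region at 24146761, over a start (SE, limma, adjusted p = 6.1e-05). Its other region over a start, at 24139356, had 0.26 ± 0.14 and was not called (SE, limma, adjusted p = 0.14). A region at 24141469 had -0.36 ± 0.14 (SE, limma, adjusted p = 0.044). A peak in both dopamine libraries and no GABA library was found at 8 of the 39 regions (8.42% of all table regions), 6 of them at AANAT1, where neighbouring regions share intervals, and the reverse at 0 (13.2% of all table regions). By the highest peak of the gene, 3 of the 6 genes ranked higher in both dopamine libraries than in every GABA library (23.8% of all genes). The other way was found at 1 (39.4%). The tested regions of Ddc, the decarboxylase shared by both transmitters, and of Pu did not pass the test. Another Ddc region (start at 19119566) overlapped a peak of 4.28 and 5.80 in dopamine neurons, which also reached the start region, and no GABA peak.

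The G proteins and effectors through which the receptors act were called in both directions. Of 102 regions in 8 genes, 37 could be tested, of which 8 were called higher in dopamine neurons (24.9% of all tested regions) and 15 in GABA neurons (27.1% of all tested regions), with a median log2 difference of -0.12. A peak in both dopamine libraries and no GABA library was found at 7 of the 102 regions (8.42% of all table regions), and the reverse at 17 (13.2%). By the highest peak of the gene, 0 of the 8 genes ranked higher in both dopamine libraries than in every GABA library (23.8% of all genes), and 6 ranked the other way (39.4%). Galphao, a G protein subunit of inhibitory receptors, had 6 regions called higher in GABA neurons (27.1% of all tested regions) and 0 in dopamine neurons (24.9%). Its tested region at 10448195 was not called. Galphai, another such subunit, split, with a log2 difference of 0.48 ± 0.17 at 6979472 (SE, limma, adjusted p = 0.039). At its start, the difference was -0.67 ± 0.15 (SE, limma, adjusted p = 0.0035). Regions of Pka-C1, the catalytic subunit of the cyclic AMP dependent kinase, were called in both directions.

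The genes whose highest peak was most like that of Trh over the 5 libraries were CG42449, asRNA:CR44062 and GCS1, by the Euclidean distance of their percentiles (4.51, 4.82 and 6.80 points, of 9419 genes with a peak wherever Trh had one). For SerT they were snoRNA:Psi18S-920, nbs and CG14695, at distances of 13.1, 18.6 and 20.8 points (of 8968 genes).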

How the data were processed

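ATAC-seq was measured in 2 dopamine and 3 GABA libraries. The authors used Bowtie2 to align reads to Release 6 of the fly genome, Picard to mark duplicates, MACS2 to call peaks per library and DESeq2 to compare counts, and annotated regions with ChIPseeker. The sources used here do not give the peak calling settings or how the table's regions were made. Each peak list, as deposited, gives for each summit a fold enrichment over background, used as a ratio, and a -log10 q. In the comparison table, the authors deposited a mean signal per region, the mean over 5 libraries of counts divided by DESeq2 size factors. Its log2 fold change, standard error, statistic and p-value columns hold the authors' own comparison and were not used. The files give no counts per library, so the study's count test was not run, and the reads behind a single region are not known. Read totals of the libraries were not used here.

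Peak starts were converted to count from 1, and a summit listed without an offset was set to the centre of its interval. Peaks were joined to regions at an overlap of 1 bp or more, and the highest fold enrichment was kept. Percentiles were ranks among all peaks of a list. Regions with a peak in all 5 lists were quantile-normalised on the log2 scale and fitted with limma 3.58.1 in R 4.3.3 (neuron type only, Benjamini-Hochberg over all 16601 regions, threshold 0.05), which was tested on simulated data. Exact permutation tests used scipy 1.17.1 (10 splits), with Python 3.11.15, numpy 2.4.6 and pandas 2.3.3, and figures used matplotlib 3.10.9. Gene positions and the name Trhn came from the RefSeq table of Release 6. The members and gene lists were chosen with earlier results of these data known. Named regions were those nearest a start, with the highest mean signal, called by limma, or with a peak in all libraries of one neuron type and none of the other. Other regions were named after their values were seen. The genes like Trh and SerT were the 3 with the smallest distance. Alternatives were another normalisation, -log10 q as the signal, a minimum mean signal, filled-in missing peaks, peaks with -log10 q of at least 5, 50% cover, equal list lengths, each interval once, leaving out each library, a replicate block and, chosen after seeing the data, summits inside the region and percentiles within the 69464 peaks of each list with the highest -log10 q. No genome sequence was used here, so no sequences are shown.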

Additional observations from a re-analysis of the deposited data

How the results depend on the processing

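The direction of the 7 tested regions held in all 81 alternative values, and the call held in all that kept both dopamine libraries. Some sizes depended on 1 dopamine library. Without replicate 1 and without replicate 2, the log2 difference was -0.56 and -1.05 at 5-HT2B region 1, against -0.85. It was -0.70 and -1.01 at 5-HT2B region 2, against -0.87, and -0.71 and -0.96 at 5-HT1A region 4, against -0.89. The count of member regions called higher in GABA neurons was 7 in the main analysis. It was 22 of 36 with missing peaks at the list minimum, against 26.1% of all regions in that fit. Of these 22, 12 had no dopamine peak, so that their dopamine values are all the floor and add no support. With peaks of -log10 q of at least 5, the count was 4 of 4, against 28.4% of all regions tested. It was 7 of 7 without any single GABA library, against between 22.9% and 26.1% of all regions tested. The count called higher in dopamine neurons, 0, was 1 of 36 with missing peaks at the minimum (Trh), against 23% of all regions in that fit. It was 0 without any single GABA library, against between 20.6% and 23.9% of all regions tested. Over all regions, filling in missing peaks gave 11990 calls higher in dopamine neurons and 13595 higher in GABA neurons, against 4137 and 4498. Median centring moved the share of all calls that were higher in dopamine neurons to 40.3%, compared with 47.9%. Regions with a peak in both dopamine libraries and no GABA library numbered 1 (Trh region 2) with peaks of -log10 q of at least 5 and 1 (the same region) with equal list lengths, against 0, and between 0 and 1 without single libraries. Regions with a peak in all GABA libraries and no dopamine library numbered 10 with equal list lengths, against 16, and between 16 and 20 without single libraries. Regions with a peak in all 5 libraries numbered 4 with 50% cover and 4 with -log10 q of at least 5, against 7, and between 7 and 11 without single libraries, the highest without dopamine replicate 1. The genes with every GABA library above both dopamine libraries numbered between 5 and 6. Of 56 alternative values of the genes' percentile differences, 53 kept their sign, and SerT ranged between -17.7 and 4.16 without single libraries, turning to 4.16 without dopamine replicate 2, to 2.29 without GABA replicate 2 and to 5.40 with percentiles within an equal number of peaks per list, against -6.37. The cause of these changes was not tested beyond what each setting leaves out. The labels give the dopamine and GABA replicates numbers and do not say whether equal numbers were paired. The correlations of their deviations from the group means were -0.03 for number 1 and 0.05 for number 2. With 2 dopamine libraries these deviations are mirror images, so the correlations cannot decide on pairing. With a replicate block, 0 regions were called higher in dopamine neurons and 7 higher in GABA neurons, and over all regions the block gave 4093 and 4404 calls. A missing peak is not a measured zero, and the files hold no reads per region, so no counting interval is given.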

Other observations

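Genes tied to serotonergic fate in flies were called in both directions, near the shares of all tested regions. The list eg, hkb, tup and Lmx1a had 19 regions, 4 of which could be tested. Of these, 1 was called higher in dopamine neurons (24.9% of all tested regions) and 1 in GABA neurons (27.1%). A peak in both dopamine libraries and no GABA library was found at 1 of the 19 regions (8.42% of all table regions), and the reverse at 4 (13.2%). By the highest peak of the gene, 1 of the 4 genes ranked higher in both dopamine libraries than in every GABA library (23.8% of all genes), and 3 ranked the other way (39.4%). At eg, which encodes a nuclear receptor of serotonin neurons, the region at 21807965 on 3L had a fold enrichment of 5.41 and 6.94 in dopamine neurons, against 1.84, 2.53 and 2.33 in GABA neurons. All dopamine values were higher (log2 difference 1.54 ± 0.16 SE, limma, adjusted p = 4.5e-05), and the region over its start had a peak in both dopamine libraries and no GABA library. At Lmx1a, a LIM homeobox gene, the region at 12328836 on 3L had 3.31 and 3.19 in dopamine neurons, against 13.2, 13.7 and 8.25 in GABA neurons. The log2 difference was -1.61 ± 0.16 (SE, limma, adjusted p = 3.8e-05). The tested regions of tup did not pass, and hkb had no region with a peak in all 5 libraries.

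5-HT1B and 5-HT1A are neighbours on 2R whose starts face each other across 34512 bp, a gap that holds the genes CG15109, CG15115 and Gpxl. Both starts had stronger or sole peaks in GABA neurons (the start of 5-HT1A in all 5 libraries, that of 5-HT1B in the 3 GABA libraries alone).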
